A study of Homo sapiens with 4 samples.

Results

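The collagen-modifying enzymes are the proteins of the endoplasmic reticulum and extracellular space that hydroxylate, glycosylate, fold and cross-link collagen chains. The genes described here are 10 of the 26255 in the deposited tables: P4HA1, P4HA2, P4HB, LEPRE1, SERPINH1, PLOD1, PLOD2, PLOD3, COLGALT1 and LOXL2. They were taken by symbol, 9 of them as listed and LEPRE1 under its current symbol P3H1. The 4 RNA sequencing libraries came from HCT116, an established human colorectal carcinoma line. A pair of libraries was from cells with a knockout of C14orf159 (KO replicates 1 and 2), and a pair was from control cells that received an empty vector per the labels (EV control replicates 1 and 2). The control columns carry the name AAVS1 and the knockout columns sgDGLUCY; AAVS1 is a genomic site widely used for neutral edits, and DGLUCY is the current symbol of C14orf159. Whether a KO library came from a clone or a pool of edited cells, and whether replicates were separate cultures, is not given in the labels, so every p-value speaks of the spread among these 4 libraries, part of which may be technical.

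Collagen chains enter the endoplasmic reticulum and are modified there before they wind into a triple helix. Prolyl 4-hydroxylase, which joins catalytic alpha subunits (P4HA1, P4HA2) to the beta subunit P4HB, makes the 4-hydroxyproline that keeps the helix stable at body temperature. Lysyl hydroxylases (PLOD1, PLOD2, PLOD3) make hydroxylysine, to which COLGALT1 adds galactose. The chaperone HSP47, encoded by SERPINH1, binds the folded procollagen, and outside the cell LOXL2 oxidises lysines for cross-links. The hydroxylases need molecular oxygen, iron, ascorbate and 2-oxoglutarate. P4HA1, P4HA2, PLOD2 and LOXL2 are widely known as genes induced by hypoxia, and PLOD2 and LOXL2 are tied to invasive behaviour in carcinomas.

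C14orf159 itself, as a check of the labels, had 2.52 and 10.8 FPKM in the KO libraries, against 16.2 and 16.4 FPKM in the EV controls. FPKM are fragments per kilobase of transcript, scaled between libraries in a way that the sources used here do not give. KO replicate 1 kept 15.5% and KO replicate 2 kept 66.2% of the EV control mean, so each KO library is also given alone below. C14orf159 itself missed the threshold over all genes, with a KO minus EV control difference in log2(FPKM + 1) of -1.42 (SE 0.57; limma-trend, unadjusted p = 0.0554, adjusted p = 0.314). The libraries held roughly 12.7 and 13.1 M (mega) fragments in KO and 13.5 and 13.9 M in EV control, estimated from the FPKM of a single fragment. This estimate assumes scaling to each library's own depth. Over 5874 genes at 10 to 100 FPKM on average, the log2 ratio had a robust SD of 0.230 from one KO replicate to the other and of 0.0958 from one EV control to the other. All 6 epithelial markers tested were expressed, with summed levels of 3472 to 3853 FPKM in KO and 3466 to 3647 FPKM in EV control. For 3 of the 6 (EPCAM, CDH1 and CLDN7) both KO libraries lay above both controls, and for 0 below. Among all tested genes, 26.5% lay above and 25.6% below. None of the 10 enzymes lies on chromosome 14, where C14orf159 lies.

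Short promoter sequences are shown for P4HA1 and PLOD2, the hydroxylase genes with the largest differences upward, and for SERPINH1, which had the largest difference downward of the 10. They come from RefSeq (GRCh38.p14) and are written 5′ to 3′ on the gene's own strand. Capitals in P4HA1 and PLOD2 mark ACGTG or GCGTG on either strand (CACGT or CACGC when read on the printed strand), the core that hypoxia-inducible factors bind. Capitals in SERPINH1 mark GAANNTTC, a pair of the inverted units of the heat shock element; this gene is known as a heat shock gene. The P4HA1 stretch is chr10:73096935-73096964 (minus strand), the SERPINH1 stretch chr11:75562171-75562200 (plus strand), and the PLOD2 stretch holds the 250 bases before the RefSeq start, chr3:146161185-146161434 (minus strand).
P4HA1: tgtgatcgagctCACGTagcgagggctgca
SERPINH1: ccaactttccaGAAGTTTCtcgggacgggc
PLOD2: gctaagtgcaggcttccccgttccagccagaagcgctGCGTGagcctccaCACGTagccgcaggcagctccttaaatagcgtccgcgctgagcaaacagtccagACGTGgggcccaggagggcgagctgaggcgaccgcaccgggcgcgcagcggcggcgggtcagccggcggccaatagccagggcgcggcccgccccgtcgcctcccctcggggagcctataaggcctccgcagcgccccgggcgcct

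The 250 bases before the start were searched in 9 of the enzymes, and LOXL2 was not searched. ACGTG or GCGTG was found in 6 of the 9, namely P4HA1, P4HB, PLOD1, PLOD2, LEPRE1 and COLGALT1, whereas 43.2% of 35116 RefSeq windows of the same length held it. The ACGTG form alone was found in 2 of the 9, P4HA1 (86 bases before the start) and PLOD2 (200 and 146 bases), and in 18.5% of all windows. P4HA2, PLOD3 and SERPINH1 had no match to either form in this window. The windows of the 6 genes with a match held 68.4% to 72.4% G or C. Those of P4HA2, PLOD3 and SERPINH1 held 54.8%, 69.2% and 70%. The shares over all windows were not matched for base composition. GAANNTTC was found in SERPINH1 alone among the 9, 71 bases before the start, and in 5.78% of all windows. Such matches describe these letters and show no binding. CACGTG, which would have counted on both strands, was not among the stretches shown.

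To ask whether the enzymes stood at a different level in the libraries labelled as C14orf159 knockout, whose C14orf159 levels were unequal, KO and EV control were compared in a fit across all 12701 genes that reached at least 1 FPKM in at least 2 libraries. All 10 enzymes reached that level. P4HA1, PLOD2, LOXL2 and P4HA2 were higher and SERPINH1 was lower in both KO libraries than in both EV controls. P4HB, PLOD3 and LEPRE1 were also lower in both KO libraries, with smaller differences (-0.10, -0.07 and -0.06 in log2(FPKM + 1)). The differences ran from a 1.98-fold level for P4HA1 to a 0.648-fold level for SERPINH1. None of the 10 passed the test over all genes (limma-trend, Benjamini-Hochberg adjusted p under 0.05; smallest adjusted p = 0.134), a threshold that 0.11% of all tested genes passed. At an unadjusted p under 0.05 there were 4 on the higher and 1 on the lower side, against 9.23% of all tested genes higher and 7.22% lower. Both KO libraries lay above both controls for 4 enzymes and below them for 4, where 26.5% of all tested genes lay above and 25.6% below. The median difference of the 10 was 0.01 on the log2(FPKM + 1) scale, beside 0.00 over all tested genes, with members on both sides. It was -0.06 in KO replicate 1 alone and 0.11 in KO replicate 2 alone. With 2 libraries against 2, an exact permutation test of a single gene cannot go below a two-sided p of 0.333, and none was run.

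**Figure D1:**
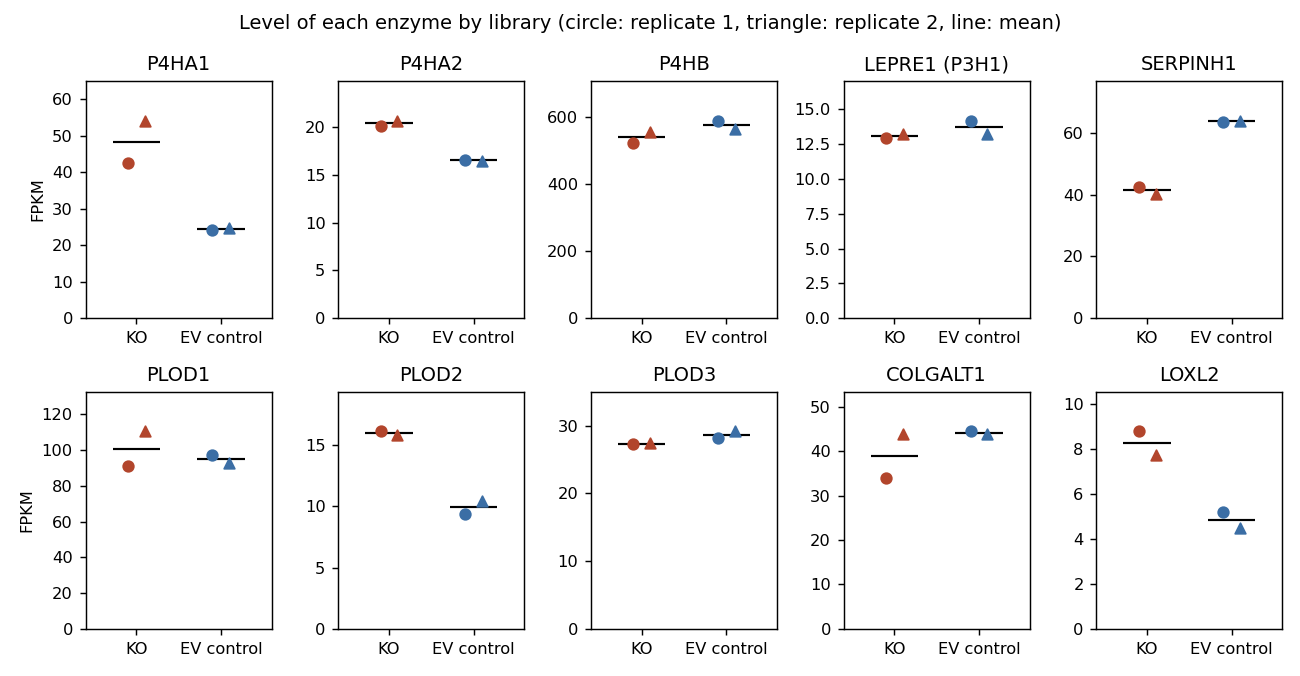
FPKM of the 10 enzymes in each library, KO left of EV control, with circles for replicate 1, triangles for replicate 2 and a line at the mean; each vertical axis starts at 0. P4HA1, P4HA2, PLOD2 and LOXL2 lie higher and SERPINH1 lower in both KO libraries. P4HB, PLOD3 and LEPRE1 lie slightly lower in both, while the KO replicates of PLOD1 and COLGALT1 lie apart and overlap the controls.

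Prolyl 4-hydroxylase is described first. P4HA1, the alpha subunit present in most cells, had 42.6 and 54.2 FPKM in KO replicates 1 and 2, against 24.2 and 24.8 FPKM in the EV controls. Both KO libraries were well above both controls, and KO replicate 2 was the higher of the pair. The mean was 48.4 ± 8.17 FPKM in KO and 24.5 ± 0.439 FPKM in EV control (SD, n = 2 each). The difference was 0.94 on the log2(FPKM + 1) scale (SE 0.13; limma-trend, unadjusted p = 0.000949, adjusted p = 0.135). In bulk RNA such as this, a change in the number of cells that express a gene and a change in RNA per cell cannot be told apart.

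P4HA2, the second alpha subunit, had 20.1 and 20.7 FPKM in KO cells, against 16.6 and 16.5 FPKM in EV control cells. The groups did not overlap, and the difference was smaller than that of P4HA1. It came to 0.29 (SE 0.08; limma-trend, unadjusted p = 0.0135, adjusted p = 0.221), a 1.23-fold level. The unadjusted p was 0.130 without EV control replicate 1 and 0.141 without EV control replicate 2. The antisense gene P4HA2-AS1 overlaps P4HA2 and reached at most 2.59 FPKM, and whether counting used strand is not stated in the labels.

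P4HB, the beta subunit, which also works alone as protein disulfide isomerase, was the most abundant of the 10, above 98.6% of tested genes. It had 523 and 556 FPKM in KO cells, against 590 and 563 FPKM in EV control cells. The groups lay close together without overlap, and the difference was -0.10 (SE 0.10; limma-trend, adjusted p = 0.659). The beta subunit exceeded the summed alpha subunits 8.29 and 7.31 times in the KO libraries and 14.3 and 13.4 times in the EV controls. Summed alpha subunits, P4HA3 included, stood at 63.1 and 76.1 FPKM in KO and 41.2 and 41.9 FPKM in EV control. P4HA3 reached at most 1.27 FPKM in any library.

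Shares within a family do not depend on the scaling between libraries, since all members are read from the same library. P4HA1 made up 67.5% and 71.2% of the alpha subunit FPKM in the KO libraries, against 58.6% and 59.1% in the EV controls. The alpha subunit pool thus leaned further to P4HA1 in each KO library, by 10.5 percentage points between the means. These shares were not tested, since the groups hold 2 libraries each.

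**Figure D2:**
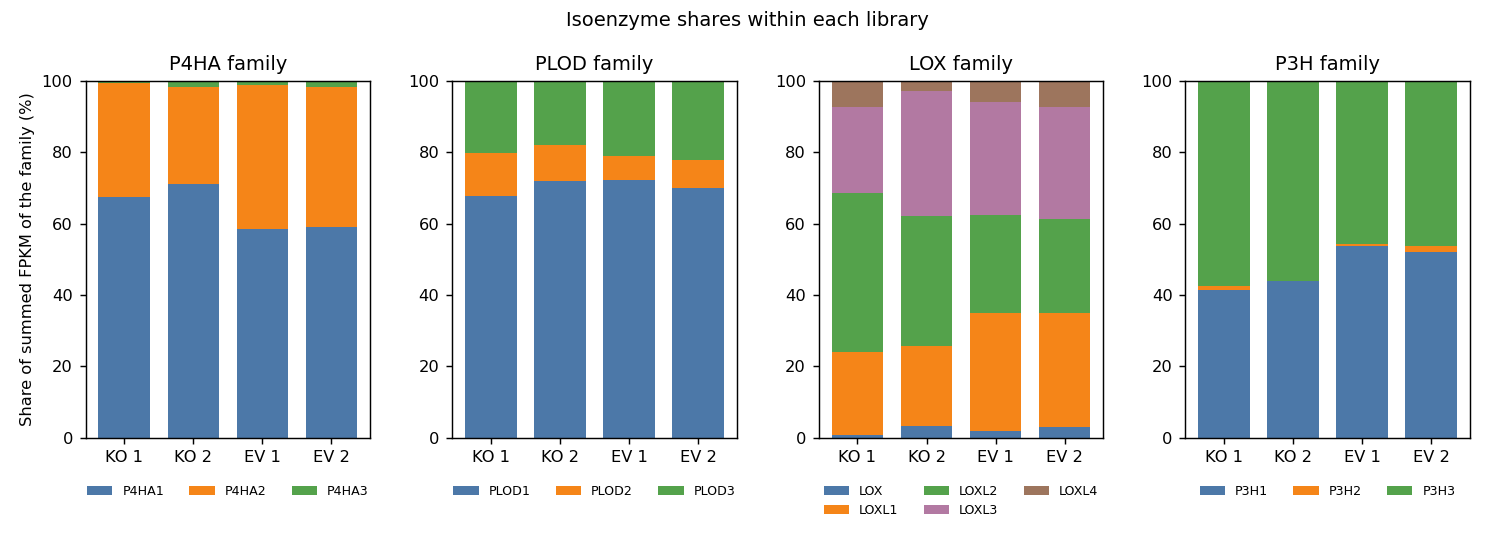
Share of each isoenzyme in the summed FPKM of its family (vertical axis, %) in KO replicates 1 and 2 and EV control replicates 1 and 2, for the prolyl 4-hydroxylase alpha subunits, lysyl hydroxylases, lysyl oxidases and prolyl 3-hydroxylases. P4HA1, PLOD2, LOXL2 and P3H3 take larger shares in both KO libraries, for example 67.5% and 71.2% against 58.6% and 59.1% for P4HA1.

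The lysyl hydroxylases differed from each other. PLOD2, which hydroxylates lysines of the collagen telopeptides and so steers the kind of cross-link formed, had 16.1 and 15.8 FPKM in KO cells, against 9.36 and 10.5 FPKM in EV control cells. The KO replicates were close to each other and both above the controls. The level was 1.61-fold, and the difference was 0.64 (SE 0.09; limma-trend, unadjusted p = 0.00106, adjusted p = 0.140). Taken alone, KO replicate 1 differed by 0.65 and KO replicate 2 by 0.62.

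PLOD1, which acts on lysines of the helical part, was the most abundant lysyl hydroxylase. It had 91.2 and 110.6 FPKM in KO cells, against 97.3 and 92.8 FPKM in EV control cells. The KO libraries lay on either side of the controls, and the difference was 0.08 (SE 0.12; limma-trend, adjusted p = 0.757). PLOD3, which also carries glycosyltransferase activity, had 27.3 and 27.4 FPKM in KO and 28.2 and 29.2 FPKM in EV control (difference -0.07, SE 0.07; adjusted p = 0.679, limma-trend). ZNHIT1, at up to 59.2 FPKM, overlaps PLOD3 on the other strand, so part of the PLOD3 reads could belong to it if strand was not used.

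PLOD2 took 12.0% and 10.3% of the lysyl hydroxylase FPKM in the KO libraries, against 6.94% and 7.90% in the EV controls. PLOD1 held the largest share in every library, between 67.8% and 72.2%. For each unit of PLOD3 there were 0.591 and 0.576 units of PLOD2 in KO and 0.332 and 0.359 in EV control.

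COLGALT1, the galactosyltransferase that acts on hydroxylysine, split by KO library. It had 33.9 FPKM in KO replicate 1 and 43.9 FPKM in KO replicate 2, against 44.5 and 43.8 FPKM in the EV controls. KO replicate 1 was below both controls and KO replicate 2 lay between them. The pooled difference was -0.19 (SE 0.14; limma-trend, adjusted p = 0.530). Taken alone, KO replicate 1 differed by -0.37 and KO replicate 2 by -0.01. The related COLGALT2 stayed under 0.1 FPKM in every library.

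SERPINH1 encodes HSP47, a chaperone specific for procollagen, and was the single enzyme or chaperone of the 10 with an unadjusted p under 0.05 on the lower side. It had 42.5 and 40.4 FPKM in KO cells, against 63.7 and 64.1 FPKM in EV control cells. The KO libraries were close together and both well below the controls. The mean was 41.4 ± 1.47 FPKM in KO and 63.9 ± 0.245 FPKM in EV control (SD, n = 2 each). The difference was -0.61 (SE 0.08; limma-trend, unadjusted p = 0.00056, adjusted p = 0.134), the smallest p-value among the 10. Set against P4HB, SERPINH1 stood at 0.0812 and 0.0726 in the KO libraries and 0.108 and 0.114 in the EV controls. A processed pseudogene, SERPINH1P1, exists elsewhere in the genome and could take or lend reads.

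LEPRE1 (P3H1), the prolyl 3-hydroxylase that works in a complex with CRTAP and the prolyl isomerase PPIB, had 12.96 and 13.2 FPKM in KO cells, against 14.2 and 13.3 FPKM in EV control cells. KO replicate 2 and EV control replicate 2 were nearly equal, and the difference was -0.06 (SE 0.08; limma-trend, adjusted p = 0.732). CRTAP had 22.8 and 22.4 FPKM in KO and 22.1 and 21.3 FPKM in EV control, and PPIB had 580.2 and 643 FPKM in KO and 586 and 557 FPKM in EV control. Neither partner passed the test (adjusted p = 0.720 and 0.683, limma-trend).

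LOXL2, a secreted copper-dependent lysyl oxidase that starts collagen cross-links, was the least abundant of the 10. It had 8.80 and 7.76 FPKM in KO cells, against 5.22 and 4.50 FPKM in EV control cells. The groups did not overlap, and the level was 1.70-fold. The difference was 0.66 (SE 0.12; limma-trend, unadjusted p = 0.00249, adjusted p = 0.175). Its lowest value rests on roughly 223 fragments, with a counting error of about 6.70%, whereas P4HB rests on at least about 17285. LOXL2 shares some of its locus with ENTPD4 on the same strand, at up to 17.3 FPKM.

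None of the 3 other lysyl oxidases tested had an unadjusted p under 0.05 (limma-trend), beside 9.23% of all tested genes higher and 7.22% lower. LOXL1 had 4.56 and 4.79 FPKM in KO and 6.24 and 5.43 FPKM in EV control (difference -0.27, SE 0.11; adjusted p = 0.317, limma-trend). Taken alone, KO replicates 1 and 2 differed by -0.22 and 0.34 for LOXL3 and by 0.17 and -0.44 for LOXL4. For LOXL1 they differed by -0.30 and -0.24. LOXL3 and LOXL4 overlapped between the groups, and LOX, at 0.174 to 0.725 FPKM, was too low to be tested. LOXL2 made up 44.6% and 36.4% of the summed lysyl oxidase FPKM in the KO libraries, against 27.5% and 26.4% in the EV controls. In KO it was the largest of the family in both libraries, but in KO replicate 2 it was nearly level with LOXL3 (36.4% against 34.9%). In the EV controls LOXL1 and LOXL3 were above it.

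**Figure D3:**
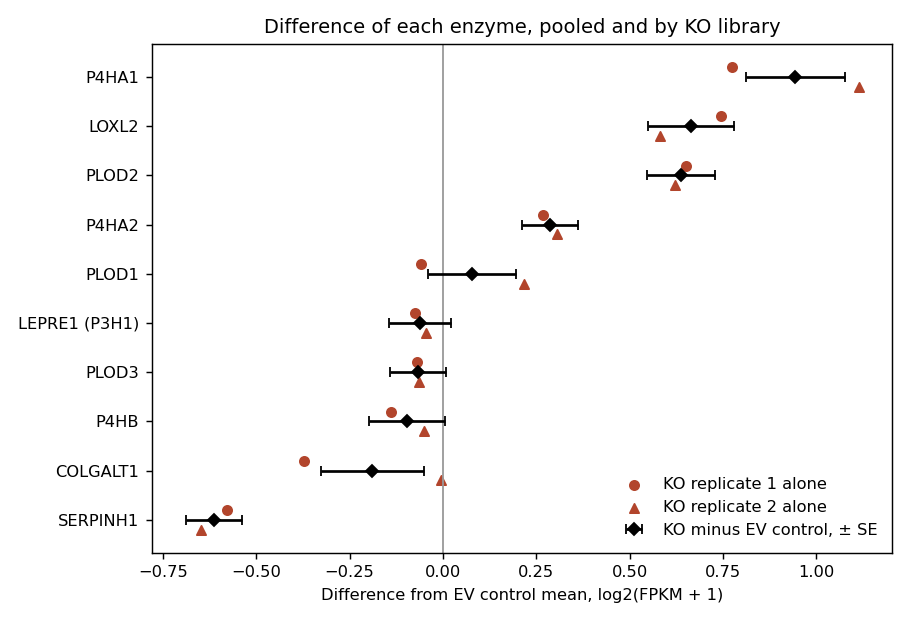
Difference from the EV control mean on the log2(FPKM + 1) scale (horizontal axis) for each enzyme, with diamonds and bars for the KO group ± SE from limma-trend, circles for KO replicate 1 alone and triangles for KO replicate 2 alone. P4HA1, LOXL2, PLOD2, P4HA2 and SERPINH1 keep their side of 0 in each KO library, as do P4HB, PLOD3 and LEPRE1 with small differences. PLOD1 does not, and COLGALT1 reaches -0.37 in KO replicate 1 and -0.01 in KO replicate 2.

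Ordered by mean level per length over the 4 libraries, the enzymes ran P4HB (558 FPKM), PLOD1 (98.0), SERPINH1 (52.7), COLGALT1 (41.5), P4HA1 (36.4), PLOD3 (28.01), P4HA2 (18.5), LEPRE1 (13.4), PLOD2 (12.9) and LOXL2 (6.57). The ranges over libraries of SERPINH1, COLGALT1 and P4HA1 overlapped, as did those of PLOD3 and P4HA1 and those of LEPRE1 and PLOD2. P4HB, PLOD1, P4HA2 and LOXL2 overlapped with no other enzyme.

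Each KO library was also set alone against the EV controls, which both comparisons share, with the lone library assumed to vary like the controls. KO replicate 1 alone had 5 enzymes past an adjusted p under 0.05 in limma-trend (P4HA1, PLOD2 and LOXL2 higher, SERPINH1 and COLGALT1 lower), where 13.2% of all tested genes passed. KO replicate 2 alone also had 5 (P4HA1, P4HA2, PLOD2 and LOXL2 higher, SERPINH1 lower), where 17.5% of all tested genes passed. P4HA1 differed by 0.77 in KO replicate 1 and 1.11 in KO replicate 2, LOXL2 by 0.74 and 0.58, and SERPINH1 by -0.58 and -0.65. The KO replicates varied more than the EV controls, as given above, so that assumption may be too narrow.

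Fibroblasts make most collagen in tissue, so their markers were read beside these values. Of 11 fibroblast markers, 9 stayed below 1 FPKM in every library, and COL1A2, DCN, LUM, FAP and POSTN were listed at 0 in all 4. The summed level of the list was 12.6 to 13.1 FPKM in KO and 9.11 to 10.01 FPKM in EV control, nearly all from COL1A1 and ACTA2. Of the leukocyte and endothelial markers, PTPRC and CD3E were listed at 0 in every library, and CD68 was the single one to reach 1 FPKM.

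Partners and paralogs of the hydroxylases had 3 higher genes and no lower one among 8 tested, taken at an unadjusted p under 0.05 (9.23% of all tested genes higher, 7.22% lower), and 0 past the adjusted threshold (limma-trend). P3H3, a prolyl 3-hydroxylase paralog of LEPRE1, had 18.1 and 16.9 FPKM in KO cells, against 12.1 and 11.8 FPKM in EV control cells. The KO libraries were both above the controls (difference 0.52, SE 0.08; unadjusted p = 0.00169, adjusted p = 0.161, limma-trend). P3H3 was therefore the more abundant of the pair in KO, at 1.39 and 1.28 times LEPRE1, and the less abundant in EV control, at 0.850 and 0.890 times. FKBP14, a prolyl isomerase of the endoplasmic reticulum, had 4.25 and 4.76 FPKM in KO and 3.44 and 2.97 FPKM in EV control. The zinc transporter gene SLC39A13 had 10.8 and 10.9 FPKM in KO and 9.48 and 8.57 FPKM in EV control. FKBP10, a chaperone of PLOD2, had 33.3 and 35.4 FPKM in KO and 36.5 and 34.5 FPKM in EV control, where the groups overlapped. Of the 3 higher genes, FKBP14 and SLC39A13 lost the unadjusted level when either EV control was left out. SLC39A13 also lost it without KO replicate 2. For P3H3, KO replicate 1 alone differed by 0.56 and KO replicate 2 alone by 0.47.

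Collagen chains are the substrates of the 10. Of 43 chain genes, 14 were expressed enough to be tested and 29 stayed below 1 FPKM in every library. At an unadjusted p under 0.05, 4 were higher and 1 lower, beside the 9.23% and 7.22% of all tested genes, and 0 passed the adjusted threshold (limma-trend). COL12A1 had 11.60 and 11.63 FPKM in KO and 19.3 and 20.7 FPKM in EV control. COL13A1 had 5.95 and 4.31 FPKM in KO and 2.06 and 2.08 FPKM in EV control. COL18A1 had 33.3 and 34.03 FPKM in KO and 25.98 and 25.8 FPKM in EV control. COL1A1 had 6.43 and 7.15 FPKM in KO and 4.54 and 4.61 FPKM in EV control. COL18A1 and COL6A2 lost the unadjusted level when either EV control was left out, while COL1A1, COL12A1 and COL13A1 kept it. The summed FPKM of all chain genes was 181 to 187 in KO and 169 to 173 in EV control. At the unadjusted level, 7 chains were higher and 2 lower without KO replicate 2, against 15.7% higher and 17.4% lower among all tested genes. Without KO replicate 1 there were 4 higher and 3 lower, against 21.8% higher and 16.8% lower among all tested genes. Without EV control replicate 1, and likewise without replicate 2, 2 were higher and 1 lower, against 3.61% and 2.92% higher and 1.56% and 1.22% lower among all tested genes.

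**Figure D4:**
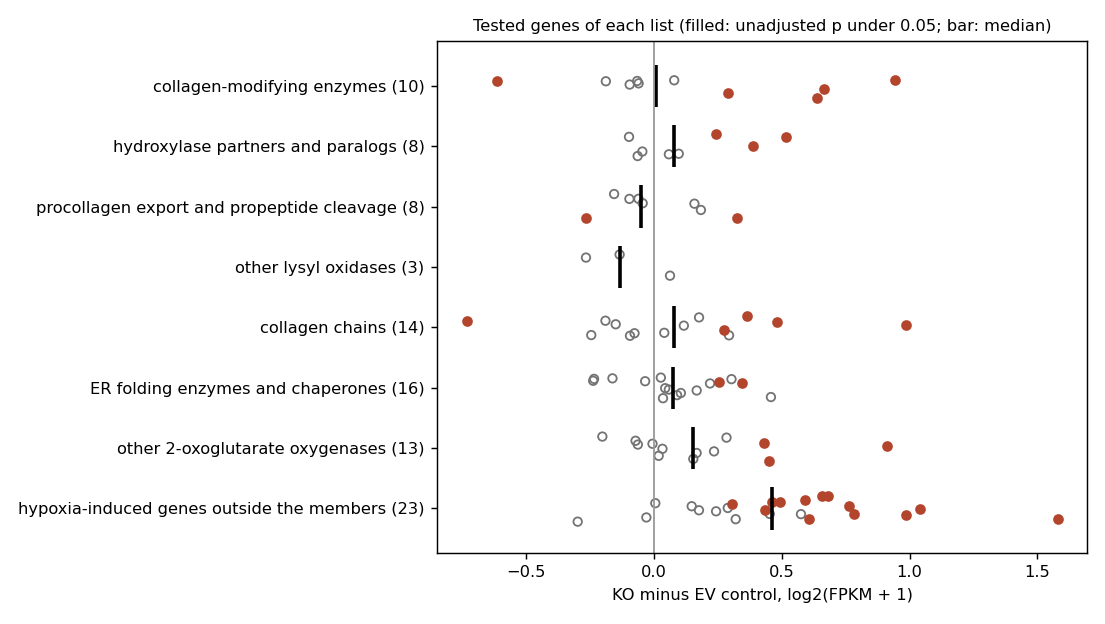
KO minus EV control on the log2(FPKM + 1) scale (horizontal axis) for each tested gene of the 10 enzymes and of related lists, with the number tested in brackets, filled points for an unadjusted p under 0.05 in limma-trend and a bar at the median. The hypoxia-induced genes have a median of 0.46, and the enzymes have a median of 0.01 with values on both sides.

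Genes induced by hypoxia, other than the enzymes, were read as a further list. Among 23 tested, those with an unadjusted p under 0.05 were 13 higher ones and no lower one (9.23% of all tested genes higher, 7.22% lower), 0 passed the adjusted threshold (limma-trend), and the median difference was 0.46 beside 0.00 over all tested genes. NDRG1 had 90.8 and 85.5 FPKM in KO and 45.2 and 42.8 FPKM in EV control, the glycolytic enzyme gene ENO2 had 48.9 and 54.8 FPKM in KO and 30.6 and 29.7 FPKM in EV control, and the transcriptional repressor gene BHLHE40 had 30.8 and 29.7 FPKM in KO and 19.4 and 17.6 FPKM in EV control. Both KO libraries lay above both controls for 19 of the 23 and below them for 1, beside 26.5% and 25.6% of all tested genes. The lower gene, STC2, had 10.2 and 12.6 FPKM in KO and 13.8 and 14.5 FPKM in EV control. PFKFB3 and AK4 differed by -0.03 and 0.00. With median-of-ratios scaling 1 gene was lower at an unadjusted p under 0.05, as without small RNA genes (limma-trend). The list was chosen with earlier results of these data known, and its part in the differences of the enzymes was not tested.

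Among all tested genes, those nearest to P4HA1 by their pattern over the 4 libraries (Euclidean distance of log2(FPKM + 1) from the EV control mean) were ARHGAP29, CBR3 and CDKN1C, at distances of 0.0676, 0.109 and 0.149. ARHGAP29 had 43.0 and 54.3 FPKM in KO and 23.3 and 25.5 FPKM in EV control. Over 4 libraries many genes can come this close.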

How the data were processed

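FPKM, 1 value per gene symbol and library, were used as the authors deposited them, from poly(A)-selected, stranded libraries per the labels' protocols. Per the submitters' processing notes, hg19 was the build and the tools were Cuffnorm 2.2.1, SAMtools 0.1.19, Bowtie2 2.2.3 and TopHat2 2.0.13; for annotation, strand and scaling, nothing is given in the sources used here. Values were transformed to log2(FPKM + 1), which understates the change of low genes. Genes with at least 1 FPKM in at least 2 libraries were tested with limma 3.58.1 (lmFit, then eBayes with its trend option, 2.82 prior degrees of freedom) in R 4.3.3, group being the sole term, with Benjamini-Hochberg adjustment over all 12701 genes. The procedure was run on simulated data in which both groups had the spread of the EV controls. The KO replicates varied more (robust SD of 0.230 against 0.0958), so the simulation does not cover unequal spread. Differences are KO minus EV control.

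No table of read counts was used. Depths and fragments per enzyme assume that FPKM were scaled to each library's own depth. The rough depths come from the FPKM of 1 fragment in genes with a single GENCODE release 29 transcript of 2000 to 6000 nt (52 to 65 genes per library, products of FPKM and kilobases between 0.06 and 0.1, a window that bounds the result); fragments per enzyme assume the longest coding transcript and their error covers counting only. Of the 10 enzymes, 9 matched the RefSeq promoter table. Named genes were C14orf159, every enzyme, up to 3 of lowest p in each list, set partners (CRTAP, PPIB, LOX, FKBP10, COLGALT2) and the 3 genes nearest to P4HA1; a few other names were added with their values in view. The enzymes and lists were chosen with earlier results of these data known.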

Additional observations from a re-analysis of the deposited data

How the results depend on the processing

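No scaling moved the median of all genes by as much as 0.1 on the log2 scale. P4HA1, PLOD2, LOXL2 and SERPINH1 kept their direction and an unadjusted p under 0.05 in all 14 alternatives, with ranges of 0.775 to 1.11, 0.56 to 0.71, 0.58 to 0.76 and -0.65 to -0.58. P4HA2 lost it in 2, without either EV control. PLOD1 turned to -0.059 without KO replicate 2 and was 0.22 without KO replicate 1, the range over left-out libraries. The count of enzymes with an unadjusted p under 0.05 on the lower side was 2 with quantile normalization, P4HB being the addition.

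Over all genes, 7 were higher and 7 lower at an adjusted p under 0.05. Without a filter on low values these counts were 3 and 3, with quantile normalization 4 were lower, and in limma without the trend 3 were higher. Without small RNA genes they were 0 and 0 (limma-trend, 2171 genes at an unadjusted p under 0.05). Leaving out a library in turn gave from 6 to 1381 higher and from 5 to 881 lower genes, 0 to 5 enzymes past the adjusted threshold (5 without either KO library), and, at an unadjusted p under 0.05, 3 to 5 enzymes higher and 1 to 2 lower, against from 2.92% to 21.8% higher and from 1.22% to 17.4% lower among all tested genes. The KO minus EV control difference in share was 8.63 to 12.3 percentage points for P4HA1, 2.84 to 4.55 for PLOD2 and 9.40 to 17.7 for LOXL2.

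With a replicate block 4 genes were higher and 8 lower, with 0 enzymes past the adjusted threshold and, at an unadjusted p under 0.05, 4 higher and 1 lower. The replicate numbers are shared by label alone, and the deviations of same-numbered libraries had a correlation of -0.00455, so they were not treated as pairs. Depth limits LOXL2 and PLOD2 most, and 2 libraries per group limit every test.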

Other observations

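Folding enzymes and chaperones of the endoplasmic reticulum, among which P4HB works, gave 2 genes higher and 0 lower of 16 tested at an unadjusted p under 0.05, beside 9.23% of all tested genes higher and 7.22% lower, and 0 past the adjusted threshold (limma-trend). ERO1B, an oxidase that recharges protein disulfide isomerases, had 3.32 and 3.29 FPKM in KO and 2.35 and 2.42 FPKM in EV control. PDIA5, a protein disulfide isomerase, had 31.9 and 29.1 FPKM in KO and 26.2 and 24.6 FPKM in EV control. SDF2L1, a component of a chaperone complex of the endoplasmic reticulum, had 46.4 and 64.8 FPKM in KO and 37.3 and 42.2 FPKM in EV control (limma-trend, unadjusted p = 0.0516). The median difference of the list was 0.07 on the log2(FPKM + 1) scale. At the unadjusted level 8 were higher and 2 lower without KO replicate 1, against 21.8% higher and 16.8% lower among all tested genes. There were 2 higher and 2 lower without KO replicate 2, against 15.7% higher and 17.4% lower among all tested genes. With EV control replicate 1 or replicate 2 left out there were 0 either way (limma-trend), against 3.61% and 2.92% higher and 1.56% and 1.22% lower among all tested genes. Procollagen export and propeptide cleavage genes gave 1 higher and 1 lower of 8 tested, near the shares of all tested genes, and 0 of either with EV control replicate 1 or replicate 2 left out. ADAMTS14, a procollagen N-propeptidase, had 10.9 and 11.4 FPKM in KO and 14.2 and 13.1 FPKM in EV control, and PCOLCE, an enhancer of C-propeptide cleavage, had 3.60 and 4.25 FPKM in KO and 3.11 and 2.74 FPKM in EV control. MIA3, which helps load procollagen into transport carriers, had 10.83 and 10.85 FPKM in KO and 8.998 and 10.26 FPKM in EV control (limma-trend, unadjusted p = 0.165).

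Other oxygenases that use 2-oxoglutarate, as the collagen hydroxylases do, gave 3 higher and 0 lower of 13 tested at an unadjusted p under 0.05, beside 9.23% of all tested genes higher and 7.22% lower, and 0 past the adjusted threshold (limma-trend). ASPH, an aspartyl hydroxylase of the endoplasmic reticulum, had 132.7 and 114.6 FPKM in KO and 89.7 and 90.2 FPKM in EV control. EGLN3, an oxygen sensor, had 4.02 and 6.26 FPKM in KO and 2.53 and 1.91 FPKM in EV control, and the histone demethylase gene KDM3A had 20.5 and 17.2 FPKM in KO and 13.4 and 14.01 FPKM in EV control. Of the 13 tested genes, both KO libraries lay above both controls for 7 and below them for 2. Among all tested genes, 26.5% lay above and 25.6% below. ASPH and KDM3A lost the unadjusted level when either EV control was left out. The median difference of the list was 0.15 in KO replicate 1 alone and 0.10 in KO replicate 2 alone.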
